A study of Mus musculus with 12 samples.

Results

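Gm10857, Serf2, 5730488B01Rik and Gm6548 are 4 transcripts of the small RNA tables that belong to no small RNA class. They were chosen by symbol because their counts were higher with guides against Miat and against Mtdh than with the control guide. They are 4 of 4357 transcripts in each table after identical repeats were counted once. They are also 4 of the 2988 called unclassified here, whose symbol put them in no listed class of small or structural RNA. The difference from control is therefore given for them as a description, without a test. What the choice did not use, the difference between the 2 targets and between the 2 guides of a target, was tested.

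Small RNA was measured in 12 libraries of stem-like medulloblastoma cells from mouse cerebellum, all of the genotype Math1-Cre; SmoM2. SmoM2, an active mutant of the Hedgehog pathway protein Smoothened, drives tumour growth, and Math1-Cre, driven by the promoter of a granule neuron progenitor gene, switches it on in that lineage. Control libraries carried the guide sgGal4-4 (4 libraries). Miat libraries carried sgMiat-6 or sgMiat-96, and Mtdh libraries sgMtdh-1 or sgMtdh-2, with 2 libraries per guide and 4 per target. Miat is a long non-coding RNA, and Mtdh encodes metadherin. The labels give no treatment, time or age and do not say whether 2 libraries of a guide are separate cultures. The p-values therefore reflect how these libraries scatter, which could be technical alone.

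Libraries held 22785 to 161038 counts, of which Rn45s, the ribosomal RNA precursor, took 53.8% to 56.2% in controls, 71.2% to 83.9% in Miat libraries and 66.0% to 78.1% in Mtdh libraries. Levels below are counts per 1000000 counts outside Rn45s (CPM), and values with Rn45s in the total are given beside them. The counts outside Rn45s ranged from 7208 in the first sgMtdh-1 library to 43443 in the first sgMiat-6 library. The 9 listed neural microRNA precursors summed to 9425 to 12364 CPM in controls, 5149 to 6327 in Miat libraries and 3885 to 6151 in Mtdh libraries, with Mir124a-1, Mir124a-2 and Mir124a-3 at 0. Listed markers of liver and epithelium were at 0 throughout, and those of blood, endothelium, muscle and oligodendrocytes summed to at most 5 counts in a library. The part of Rn45s and of the neural precursors in the results was not tested. Fragments of Miat itself were counted 49 and 30 times with sgMiat-6, 1 and 0 times with sgMiat-96, and 0 to 1 times in controls, so the libraries labelled sgMiat-6 held more Miat fragments than the control.

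A small RNA library captures short RNA. Counts on a transcript longer than the captured sizes therefore come from pieces of it, and from any other RNA of the same sequence. A fragment of a processed pseudogene, a reverse-transcribed copy of a messenger RNA set back into the genome, can match the parent gene, and a fragment counted without regard to strand can belong to a gene on the opposite strand. The treatment of strand and of reads with several positions is not given in the sources used here. For these reasons the sequences of the 4 transcripts were compared with all annotated mouse transcripts first.

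Gm10857 is a long intergenic non-coding RNA at chr2:6132869-6140568 (plus strand, GRCm38), with 2 exons. Its first exon overlaps the processed pseudogene Gm13384 on the opposite strand by 1088 bases, and its first 1213 bases matched the opposite strand of Traip, which encodes a ubiquitin ligase acting at replicating DNA, with 94.3% identity over 1209 aligned bases. The stretch shown is from the exon of Gm10857 at chr2:6132922-6132981, beside the reverse complement of the coding sequence of Traip on chromosome 9, where it spans an exon junction between positions 107968748 and 107970477. It is the 60-base stretch with the most differing bases inside the Traip coding sequence. Capitals mark the 8 differing bases.

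Gm10857: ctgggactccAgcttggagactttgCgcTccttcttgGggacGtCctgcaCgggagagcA
Traip, reverse complement: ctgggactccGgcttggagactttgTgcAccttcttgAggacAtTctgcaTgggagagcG

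Gm6548 is a processed pseudogene at chr17:78850792-78851956 (minus strand), 608 bases from Eif2ak2, the gene of the double-stranded RNA sensor kinase PKR. It matched the messenger RNA of Eef1a1, the elongation factor that brings aminoacyl transfer RNA to the ribosome, in the same orientation with 96.9% identity over 1163 aligned bases. The stretch shown, at chr17:78850870-78850929, is again the one with the most differing bases inside the coding sequence of the parent gene, which spans an exon junction on chromosome 9 between positions 78478815 and 78478973. Capitals mark the 6 differing bases. All these sequences are from GENCODE M21 transcripts of GRCm38, 5′ to 3′.

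Gm6548: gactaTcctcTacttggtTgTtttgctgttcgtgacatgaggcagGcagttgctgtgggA
Eef1a1: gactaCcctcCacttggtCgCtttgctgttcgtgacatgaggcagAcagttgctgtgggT

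The other two transcripts lie against genes of the opposite strand. Serf2 encodes a small charged protein whose relatives in worm and human promote protein aggregation, and the row counted here is a non-coding RefSeq transcript of 3186 bases. The GENCODE model compared here, at chr2:121449195-121453420 (plus strand, 3 exons), lies wholly inside Serinc4, a serine incorporator family gene of the opposite strand. It also overlaps Hypk, a chaperone-like partner of an N-terminal acetyltransferase, by 131 bases on the same strand. 5730488B01Rik is a single-exon non-coding model at chr4:44702800-44705110 (plus strand), inside Pax5, the B cell transcription factor gene, on the opposite strand, and 637 of its bases are the exact reverse complement of a Pax5 transcript.

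Shared sequence was counted as 25-base windows of a transcript that occur in a transcript of another gene. In the same orientation, windows were shared for 1.59% of Gm10857, 12.8% of Serf2, 0% of 5730488B01Rik and 56.4% of Gm6548, 40.3% with Eef1a1 alone. On the opposite strand the shares were 40.1%, 69.5%, 26.9% and 0% in the same order. Over 2632 transcripts of the tables that could be matched, with the shortest left out, the median was 0.0744% in the same orientation and 0.222% on the opposite strand. The share of those transcripts with at least as much shared sequence on either strand was 10.7% for Gm10857, 4.79% for Serf2, 16.2% for 5730488B01Rik and 6.88% for Gm6548. The counts can therefore hold reads of other genes, from which these tables cannot tell them apart. For Gm6548 these are reads of Eef1a1 and its other copies, and for the other 3 mainly reads of the opposite strand if strand was not used. Other transcripts of the same gene were left out of this comparison. Serf2 is a protein-coding gene, and how much the counted row shares with its messenger RNA was not examined. The deposited rows of Serf2 and Gm6548 were 3186 and 2040 bases long, against 3056 and 1165 bases in the models compared.

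**Figure D1:**
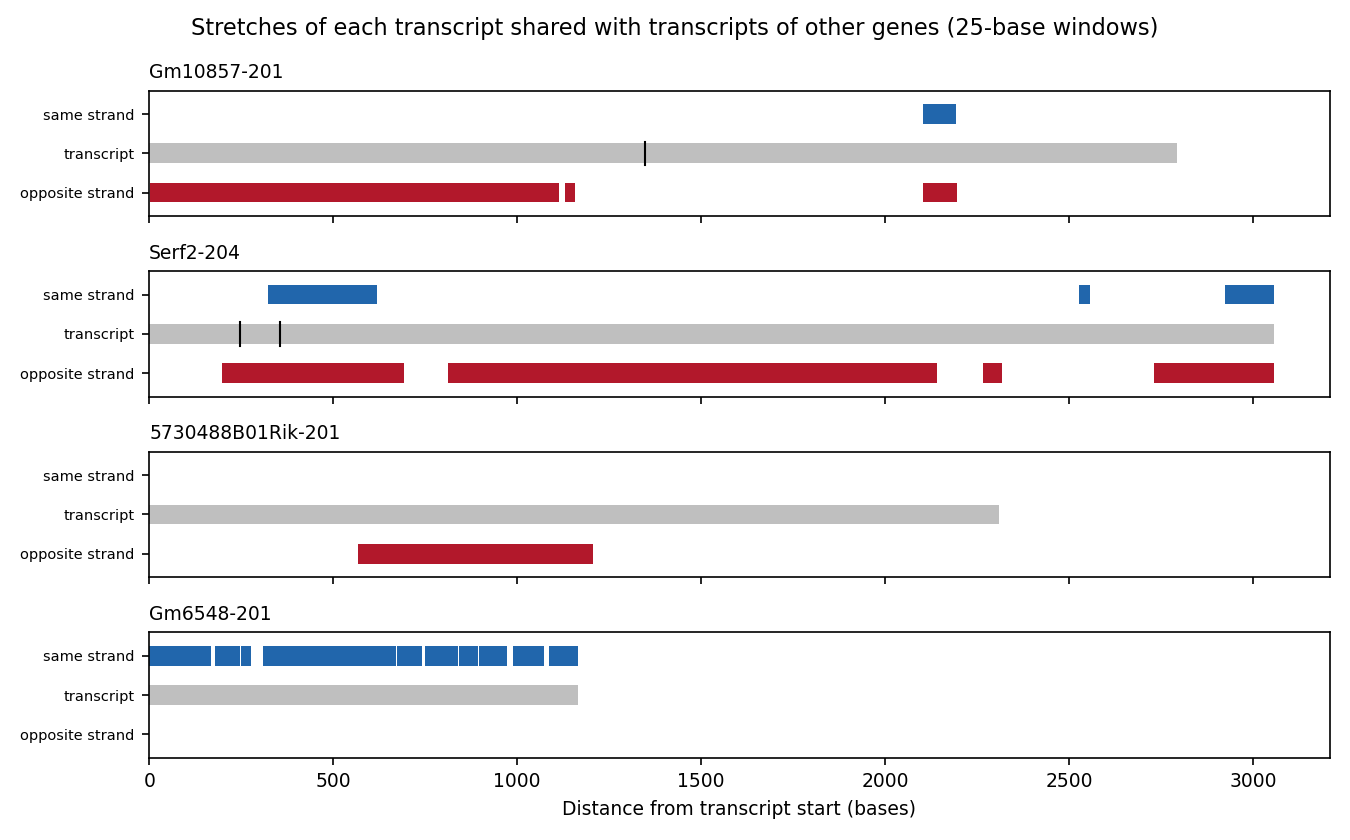
Each grey bar is a spliced transcript drawn from its start (x axis, bases), with exon junctions as black ticks. Blue marks bases in 25-base windows shared with other genes in the same orientation, and red those shared on the opposite strand. Gm6548 has blue only, while 5730488B01Rik has red only.

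Of the 4 members, 1 was found in the RefSeq promoter table (GRCm38.p6). In the 250 bases before the start of Serf2, 9 motifs were searched on both strands. CACGTG occurred 2 times (6.02% of 32851 promoters hold it) and GGGCGG 3 times (32.7%). The other 7 had no match in this window. They were the TATA box (TATAAA), the CCAAT box, the ETS core (CCGGAA), the CREB site (TGACGTCA), the GLI site (GACCACCCA), the letters CTTTCC and the NRF1 palindrome, which 0.225% to 33.9% of promoters hold.

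Gm10857 was by far the most abundant of the 4. Per length, its deposited FPKM in controls was 1654 ± 133 (SD, n = 4), against 127 ± 43.8 for Gm6548, 11.2 ± 2.07 for 5730488B01Rik and 5.22 ± 6.85 for Serf2. Neighbours in that order did not overlap between the first 3, whereas Serf2, listed at 0 in 2 controls, reached 14.4 FPKM in another and overlapped 5730488B01Rik. In Mtdh libraries the means were 5978 ± 3255 for Gm10857, 186 ± 81.0 for Serf2, 184 ± 119 for Gm6548 and 144 ± 83.6 for 5730488B01Rik, and the last 3 lay within their spread of each other. By count among transcripts outside Rn45s, Gm10857 ranked 12 to 14 in controls and 2 to 16 with the other guides. Serf2 ranked 253 to 532 in controls but 40 to 44 in 5 of the 8 other libraries. Its control ranks rest on 0 to 3 counts, and a count of 0 ranks just after all detected transcripts, so they follow depth.

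The counts of Gm10857 in control libraries were 177, 214, 187 and 298, or 11959, 9839, 9611 and 10567 CPM. For sgMiat-6 the counts were 1478 and 1261 and for sgMiat-96 they were 391 and 683, or 34022, 37993, 16456 and 50970 CPM. For sgMtdh-1 they were 437 and 921 and for sgMtdh-2 they were 2167 and 950, or 60627, 25069, 66650 and 84633 CPM. All 8 libraries with a Miat or Mtdh guide lay above every control, the first sgMiat-96 library nearest to them. Among the 147 transcripts tested, 5.44% had all 8 libraries above every control (12.9% for Miat and 10.2% for Mtdh libraries alone), and 2.04% with Rn45s in the total (4.08% and 6.12%). The members were chosen for being higher with both targets than in controls, so nothing is read from this order. In bulk libraries a change in the cells present and a change in RNA per cell cannot be told apart. Gm10857 made up 1.05% ± 0.106 (SD, n = 4) of the counts outside Rn45s in controls, 3.49% ± 1.42 in Miat libraries and 5.92% ± 2.50 in Mtdh libraries, a mean 3.32 and 5.65 times that of controls. With Rn45s in the total the multiples were 1.75 and 3.66, and the first sgMiat-96 library (4742 per 1000000) then lay inside the control range of 4443 to 5246.

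Serf2 had 0, 1, 0 and 3 counts in controls, or 0, 46.0, 0 and 106 CPM, and a count of 3, the limit that a count of 0 allows, stands for 203 and 154 CPM in the 2 libraries at 0. With sgMiat-6 it had 12 and 8 counts, 276 CPM (95% exact Poisson interval 143 to 483) and 241 CPM (104 to 475). With sgMiat-96 it had 73 and 44 counts, 3072 CPM (2408 to 3863) and 3284 CPM (2386 to 4408). The sgMiat-96 libraries lay far above the sgMiat-6 libraries, whose intervals overlapped those of the controls. The sgMtdh-1 libraries held 5 and 99 counts and the sgMtdh-2 libraries 114 and 26, or 694, 2695, 3506 and 2316 CPM, all above the controls. Summed over libraries, the rate was 5.49 times control for sgMiat-6 (95% exact interval 1.84 to 22.1) and 66.3 times for sgMiat-96 (25.2 to 247), 49.8 times for sgMtdh-1 (18.9 to 186) and 67.4 times for sgMtdh-2 (25.7 to 251). These intervals, like all those given here, cover counting error only, and rest on 4 control counts. They pool the libraries of a guide and are no test of the difference from control, by which the members were chosen. Over the transcripts counted, libraries of a guide differed beyond counting error, for which chi-square per degree of freedom is about 1. It was 28.9 for sgMiat-96, 16 for sgMtdh-1, 24.1 for sgMtdh-2, 4.26 for sgMiat-6 and 2.87 to 3.84 between controls. The intervals are therefore too narrow for the spread between libraries. With Rn45s in the total, Serf2 lay at 0 to 46.6 per 1000000 in controls, 74.5 and 67.6 with sgMiat-6, and 885 and 530 with sgMiat-96. In Mtdh libraries it then lay at 219, 651, 767 and 789. All 8 stayed above the controls, but the order of the pair of libraries was turned within sgMiat-96 and within sgMtdh-2. The mean was 45.1 times control in Miat libraries and 60.5 times in Mtdh libraries outside Rn45s, and 23.1 and 36.0 times with it.

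5730488B01Rik had 1, 1, 1 and 2 counts in controls, or 67.6, 46.0, 51.4 and 70.9 CPM. The sgMiat-6 libraries held 11 and 14 counts and the sgMiat-96 libraries 49 and 22, or 253, 422, 2062 and 1642 CPM. The sgMtdh-1 libraries held 6 and 44 and the sgMtdh-2 libraries 93 and 6, or 832, 1198, 2860 and 535 CPM. All 8 lay above the controls, and the spread between the 2 sgMtdh-2 libraries was wider than that between the guides of Mtdh. Summed rates were 5.49 times control for sgMiat-6 (2.07 to 18.4), 32.2 times for sgMiat-96 (13.2 to 102), 19.2 times for sgMtdh-1 (7.69 to 61.6) and 38.1 times for sgMtdh-2 (15.8 to 120), on 5 control counts. With Rn45s in the total it lay at 20.8 to 31.1 per 1000000 in controls, 68.3 and 118 with sgMiat-6, and 594 and 265 with sgMiat-96. In Mtdh libraries it then lay at 263, 289, 626 and 182, and all 8 again lay above the controls. The mean was 18.6 times control in Miat libraries and 23.0 times in Mtdh libraries outside Rn45s, and 9.93 and 12.9 times with it.

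Gm6548 was higher on average with guides of both targets, but not in every library. Its counts were 11, 7, 10 and 22 in controls, or 743, 322, 514 and 780 CPM. The sgMiat-6 libraries held 30 and 28 counts and the sgMiat-96 libraries 40 and 34, or 691, 844, 1684 and 2537 CPM. The sgMtdh-1 libraries held 2 and 44 counts and the sgMtdh-2 libraries 74 and 22, or 277, 1198, 2276 and 1960 CPM. The first sgMiat-6 library lay inside the control range and the first sgMtdh-1 library, the shallowest, lay below it on 2 counts, so 3 of 4 libraries of each target were above every control. The mean was 2.44 times control in Miat libraries and 2.42 times in Mtdh libraries. With Rn45s in the total these were 1.25 and 1.47, and both sgMiat-6 and both sgMtdh-1 libraries then lay inside or below the control range, with means 0.804 and 0.717 times control.

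**Figure D2:**
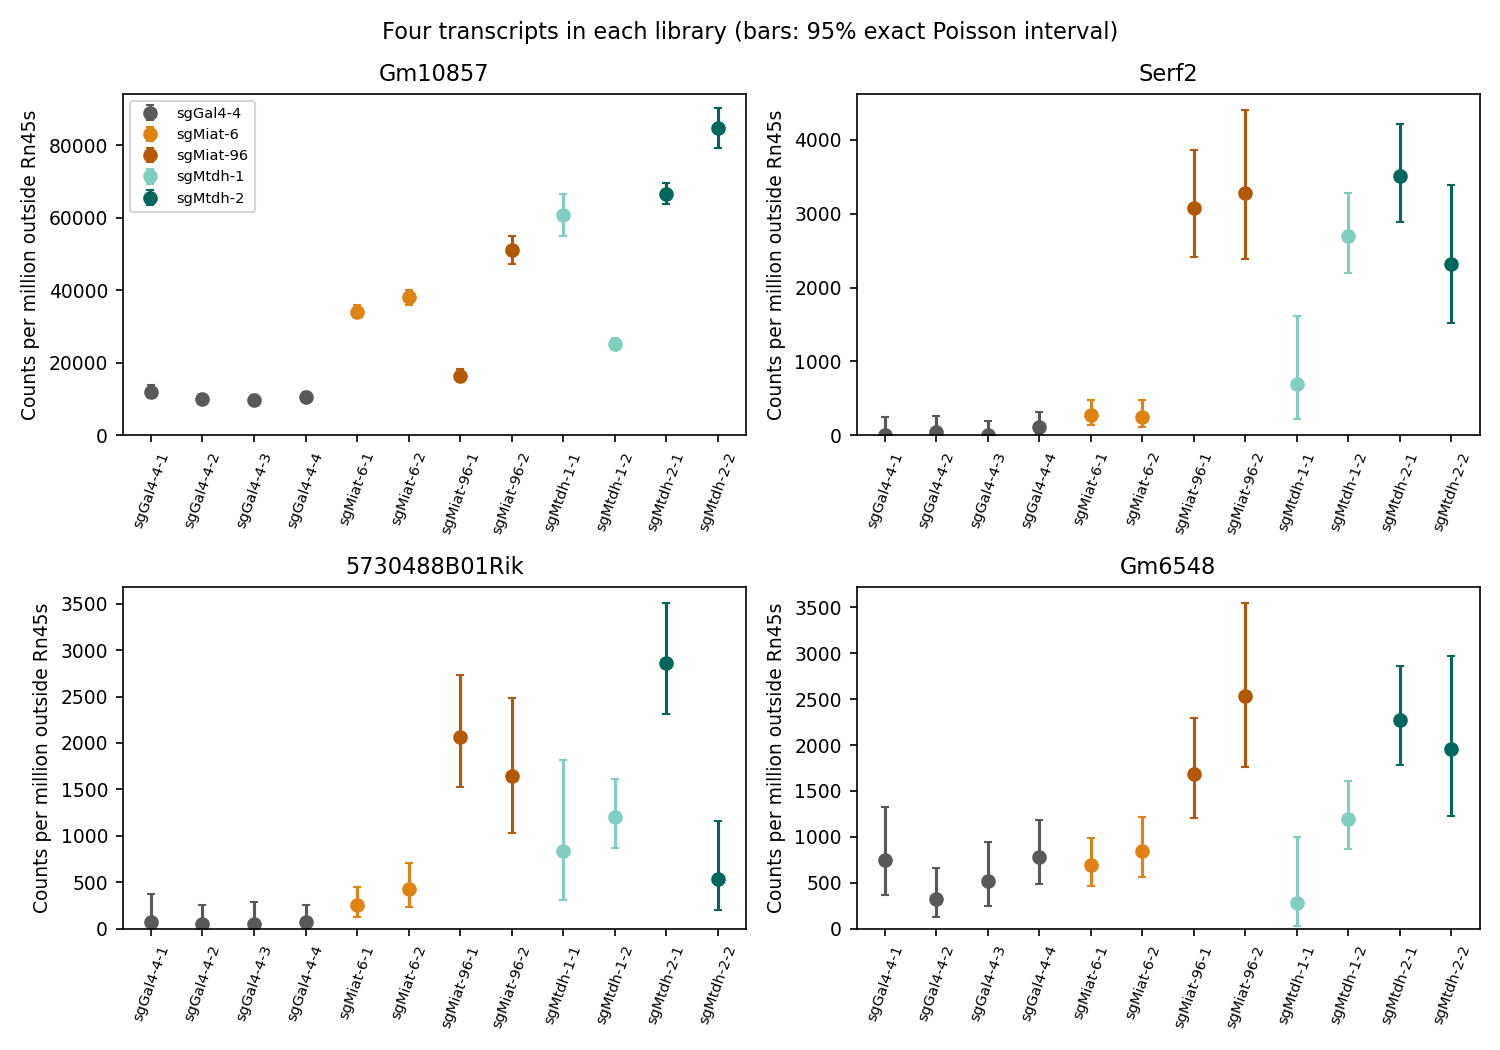
Each point is a library (x axis) and the y axis is CPM outside Rn45s on a linear scale from 0, 1 panel per transcript. Bars are 95% exact Poisson intervals, which cover counting error only and not the spread between libraries. Gm10857 lies between 9611 and 11959 in controls and reaches 84633 in an sgMtdh-2 library, and Serf2 lies at 276 and 241 with sgMiat-6 against 3072 and 3284 with sgMiat-96.

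**Figure D3:**
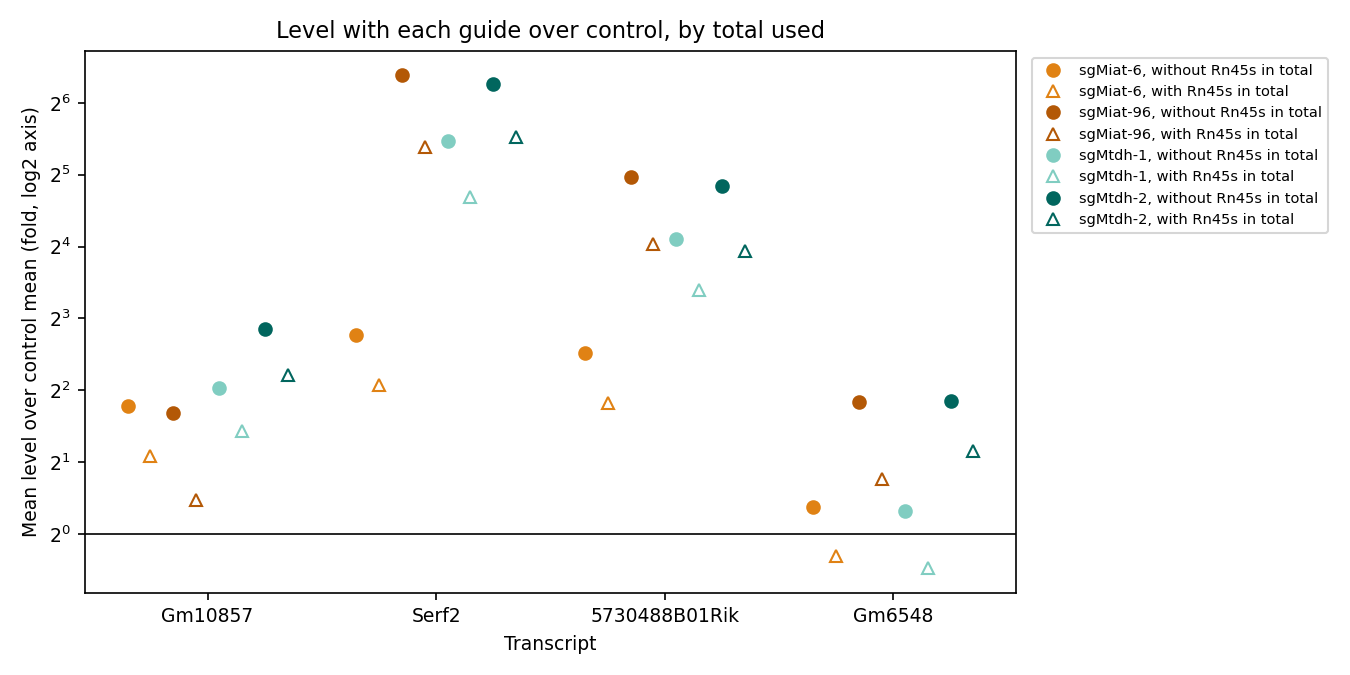
The y axis is the mean level with a guide over the control mean, on a log2 axis, with 2 libraries per guide and 4 controls. Filled circles leave Rn45s out of the total and open triangles keep it in. Every triangle is below its circle, and for Gm6548 the triangles of sgMiat-6 (0.804) and sgMtdh-1 (0.717) fall below 1.

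In the fit over all transcripts, the log2 fold change of Miat libraries over control was 1.71 for Gm10857 (SE 0.40), 4.93 for Serf2 (SE 1.03), 3.97 for 5730488B01Rik (SE 0.81) and 1.17 for Gm6548 (SE 0.57). That of Mtdh libraries over the same controls was 2.61 (SE 0.42), 5.63 (SE 1.03), 4.54 (SE 0.81) and 1.42 (SE 0.57). The values for Serf2 and 5730488B01Rik depend on the fit's prior count. Each SE, here and below, is the size of the log2 fold change divided by the root of the test's F statistic, so it is approximate. With library totals that include Rn45s, the changes in Miat and Mtdh libraries were 0.81 and 1.87 for Gm10857 and 4.14 and 4.83 for Serf2. They were 3.21 and 3.66 for 5730488B01Rik and 0.31 and 0.58 for Gm6548, so every value was lower under this scaling. That scaling moved the median of all transcripts tested to -0.66 for Miat and -0.82 for Mtdh libraries on the log2 scale, from 0.18 and 0.01. The 41 unclassified transcripts tested had a median of 0.80 in Miat libraries and 1.03 in Mtdh libraries. Of the 37 that are not members, 3 and 5 were higher at an adjusted p under 0.05 (edgeR's quasi-likelihood F test, Benjamini-Hochberg adjusted), none lower. Of all transcripts tested, 12.9% passed for Miat libraries (10.2% higher, 2.72% lower) and 10.9% for Mtdh libraries (8.16% higher, 2.72% lower). The medians of these 37 were 0.61 and 0.82. All unclassified transcripts together took 10.1% to 10.9% of the counts outside Rn45s in controls and 16.4% to 26.3% with the other guides. The 4 members took 1.02% to 1.28% and 2.33% to 8.94%. Classes were assigned by symbol, so the unclassified set holds Rprl3, an RNase P RNA-like transcript. Rprl3 ranged from 51.4 to 676 CPM in controls, 990 to 63679 in Miat libraries and 9043 to 19978 in Mtdh libraries. Its part in the rise was not tested.

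Mtdh libraries were next compared with Miat libraries, a difference that the choice of members did not use. The mean of Gm10857 was 59245 ± 24962 CPM with Mtdh guides and 34860 ± 14245 with Miat guides (SD, n = 4 each), and the ranges overlapped. Its log2 fold change was 0.89 (SE 0.39, adjusted p = 0.204, edgeR's quasi-likelihood F test, Benjamini-Hochberg adjusted). Serf2 (0.70, SE 0.73, adjusted p = 0.610), 5730488B01Rik (0.57, SE 0.61, adjusted p = 0.610) and Gm6548 (0.25, SE 0.54, adjusted p = 0.826) did not pass in the same edgeR test either. None of the 4 passed, against 4.08% of the 147 transcripts tested (1.36% higher, 2.72% lower). Of the 41 unclassified transcripts none passed, with 9 at an unadjusted p under 0.05 and a median of 0.35 against -0.06 over all tested. In a fit with 1 term per guide, Serf2 passed with a log2 fold change of 1.44 (adjusted p = 0.0438, edgeR). For the share of counts outside Rn45s, exact two-sided permutation tests of 4 libraries against 4 gave p = 0.143 for Gm10857, 0.657 for Serf2, 0.743 for 5730488B01Rik and 1 for Gm6548, where the smallest possible is 0.0286. With Rn45s in the total, the exact permutation tests gave p = 0.114, 0.314, 0.543 and 0.714, and the lowest adjusted value over the 8 tests was 0.571.

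The guides of Miat separated Serf2 and 5730488B01Rik. Serf2 was 10.3-fold higher with sgMiat-96 than with sgMiat-6 (log2 fold change 3.37, SE 0.68, adjusted p = 0.00226, edgeR's quasi-likelihood F test, Benjamini-Hochberg adjusted), and both sgMiat-96 libraries lay above both sgMiat-6 libraries. 5730488B01Rik was 4.76-fold higher (2.25, SE 0.66, adjusted p = 0.0186, same edgeR test), again without overlap. The count filter kept both members through the groups where they are high, which include sgMiat-96 and not sgMiat-6. With no filter on low counts Serf2 still passed (adjusted p = 0.00133, edgeR), and 5730488B01Rik did not (adjusted p = 0.170, edgeR). Over all transcripts tested 23.8% passed in this comparison, 12.9% as higher (19 of 147) and 10.9% as lower, and 34.7% had both sgMiat-96 libraries above both sgMiat-6 libraries. Gm6548 was higher without overlap but did not pass (1.22, SE 0.57, adjusted p = 0.143, edgeR). Gm10857 did not pass (-0.34, SE 0.44, adjusted p = 0.611, edgeR), its 2 sgMiat-96 libraries lying on either side of both sgMiat-6 libraries. Without the first sgMiat-96 library its change was 0.41, and without the second -1.29 (adjusted p = 0.0466, edgeR).

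Among the 41 unclassified transcripts 11 rose and 1 fell in sgMiat-96 relative to sgMiat-6, with a median log2 fold change of 1.22 against 0.06 over all tested. Without the 4 members 9 of 37 rose and 1 fell. The Serf2 call held under all 23 alternatives, with log2 fold changes of 2.95 to 3.59 and adjusted p of 2.21e-06 to 0.0340 (edgeR, DESeq2 or limma-voom). That of 5730488B01Rik held under 16 of 23. It was lost without control replicate 2 or 3 (adjusted p = 0.0722 and 0.0702, edgeR), without either sgMiat-6 library (0.166 and 0.0578) and without the first sgMiat-96 library (0.122), where a lone library of a guide is assumed to vary like the other guides. It was also lost with no filter on low counts (adjusted p = 0.170, edgeR) and with the replicate block (0.0722). Rn45s took 73.0% and 72.0% of counts with sgMiat-6 and 71.2% and 83.9% with sgMiat-96, and its part in the difference was not tested.

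No transcript of the 147 passed between sgMtdh-2 and sgMtdh-1 (0%) in edgeR's quasi-likelihood test, with 16 at an unadjusted p under 0.05 and 1 call each by DESeq2 and limma-voom. The log2 fold changes of the members were 1.09 for Gm10857 (SE 0.44, adjusted p = 0.332), 0.87 for Serf2 (SE 0.60, adjusted p = 0.517), 0.95 for 5730488B01Rik (SE 0.64, adjusted p = 0.493) and 1.52 for Gm6548 (SE 0.60, adjusted p = 0.302) in the same edgeR test. Both sgMtdh-2 libraries lay above both sgMtdh-1 libraries for Gm10857 and Gm6548, as for 17% of transcripts tested. The unclassified transcripts had a median of 0.84 against 0.16 over all tested. The first sgMtdh-1 library was the shallowest, and 3 counts in it stood for 416 CPM, against 81.7 CPM in the second.

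**Figure D4:**
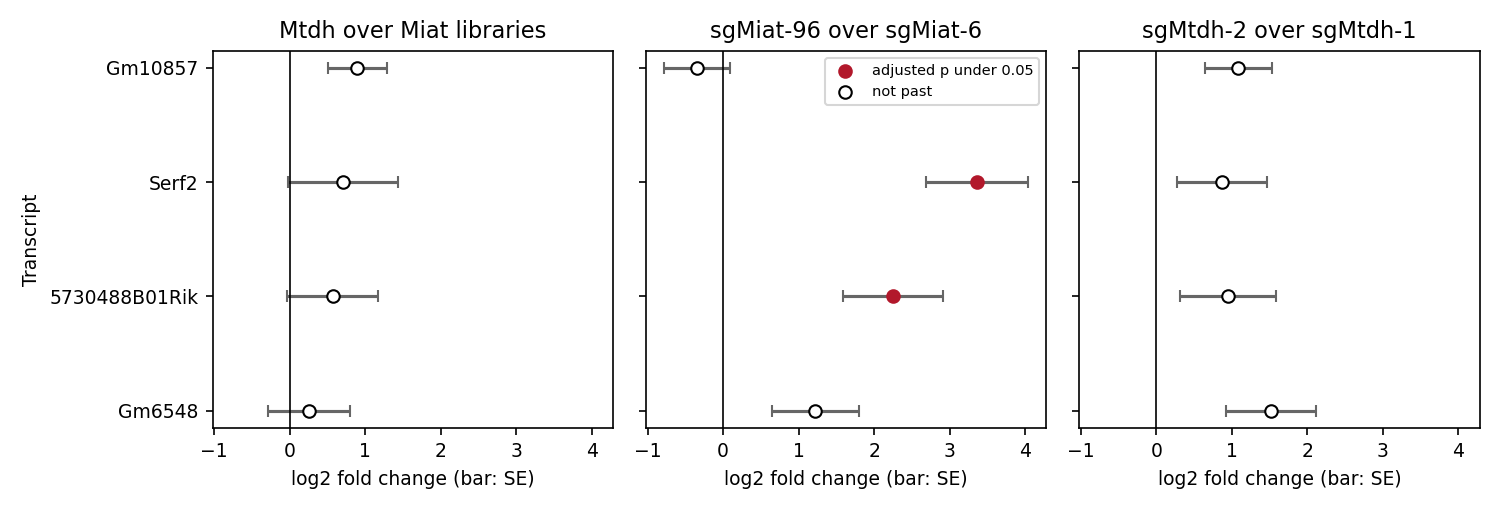
Points are log2 fold changes from edgeR's fit over 147 transcripts, 1 panel per comparison. Bars are 1 SE on each side, an approximate value taken from the F statistic. Filled red points pass an adjusted p of 0.05. Serf2 (3.37) and 5730488B01Rik (2.25) pass between the Miat guides, and no member passes in the other comparisons.

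Across libraries the members did not move as 1 group. Over the 8 libraries with Miat or Mtdh guides, the Pearson correlation of log2(CPM + 10) was 0.84 between Serf2 and 5730488B01Rik and 0.72 between Serf2 and Gm6548. It was 0.03 between Gm10857 and Serf2 and -0.10 between Gm10857 and 5730488B01Rik. These are descriptions over libraries that share depth and Rn45s content. Per 1000 counts of Gm10857 there were 4.57 counts of Serf2 in controls and 7.30 with sgMiat-6, but 109 under sgMiat-96. Summed over the libraries of a guide, sgMtdh-1 had 76.6 and sgMtdh-2 had 44.9. Single libraries of a guide were far apart, except for sgMiat-6 (8.12 and 6.34). The sgMiat-96 libraries had 187 and 64.4, those of sgMtdh-1 had 11.4 and 108, and those of sgMtdh-2 had 52.6 and 27.4. The sgMtdh-1 and sgMtdh-2 libraries thus overlapped in this ratio, and no difference between guides was tested.

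**Figure D5:**
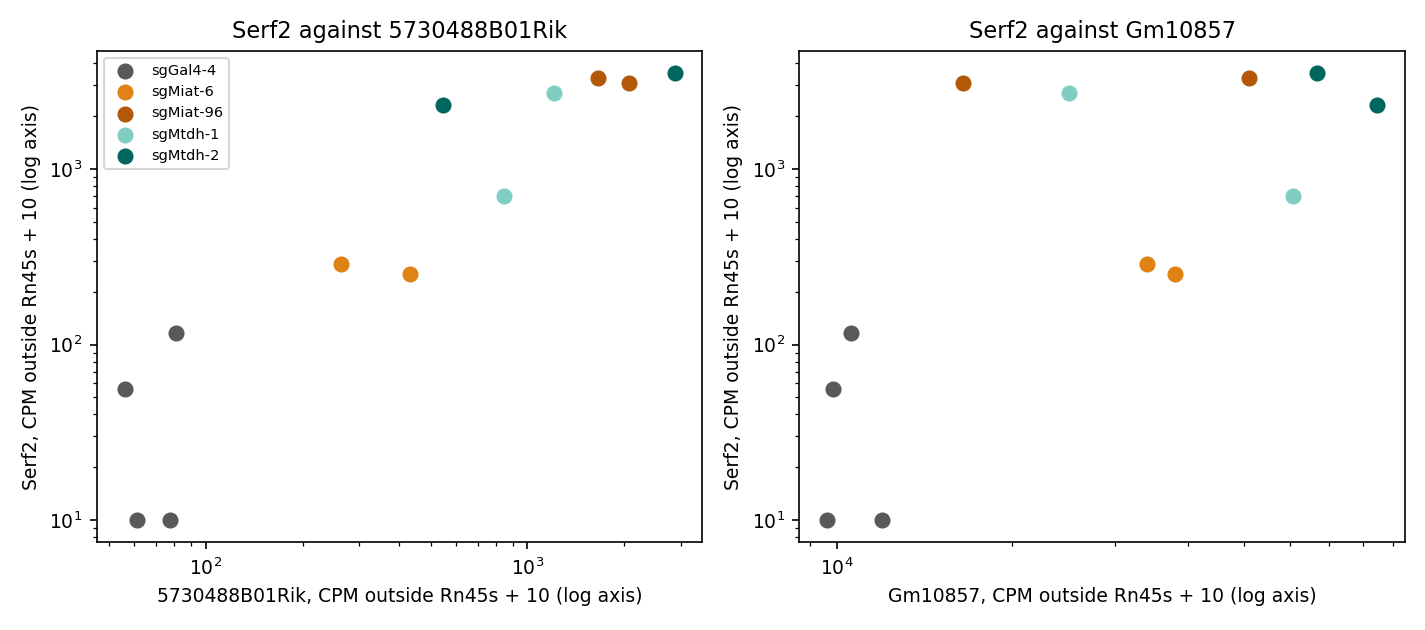
Each point is a library, coloured by guide, with CPM outside Rn45s plus 10 on log axes. Over the 8 libraries with Miat or Mtdh guides Pearson r is 0.839 for Serf2 with 5730488B01Rik and 0.028 for Serf2 with Gm10857. Over all 12, which takes in the difference from control by which the members were chosen, r is 0.926 and 0.730.

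Other transcripts with the most similar pattern over the 12 libraries were found by the same correlation, as a description that takes in the difference from control used to choose the members. For Gm10857 they were Atp2a2 (r 0.905), a non-coding transcript of the gene of the calcium pump SERCA2, Rpph1 (0.762), the RNA of RNase P, and Scarna2 (0.747), a Cajal body RNA. Serf2 was most like 5730488B01Rik (0.926), Rprl3 (0.907), an RNase P RNA-like transcript, and Scarna2 (0.871). 5730488B01Rik was most like Serf2, Rprl3 (0.895) and Scarna2 (0.895). Rprl3 ranged from 51.4 to 676 CPM in controls, 990 to 63679 in Miat libraries and 9043 to 19978 in Mtdh libraries. Gm6548 was most like Snord23 (0.744), a small nucleolar RNA, and the nuclear long non-coding RNAs Tug1 (0.736) and Malat1 (0.712), a different set from the other 3.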

How the data were processed

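The authors aligned with STAR to GRCm38 (mm10), per the submitters' processing notes, without versions. The deposited tables hold raw counts and FPKM per RefSeq non-coding transcript, 4529 rows per library, per the file headers. FPKM was used only for levels per length. The 172 rows that repeat another row of the same symbol in every library were counted once. Gm10857 has 2 such rows, of 2796 and 2777 bases by their FPKM, with identical counts. Depth was 22785 to 161038 counts per library, and 3 counts was the limit for a count of 0.

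The count test, over all classes, was that of edgeR 4.0.16 (R 4.3.3). The steps were filterByExpr by target (minimum count 10, minimum total 15), TMM factors and a quasi-likelihood fit over all 12 libraries with 1 term per target, or per guide. This kept 147 transcripts, with all 4 members, which passed through the groups where they are high. Benjamini-Hochberg adjustment ran over all 147. The tests were tested on simulated data with a smaller spread between libraries than was fitted here, which does not show their error rate in these libraries. Alternatives were other scalings and filters, DESeq2 1.42.0, limma-voom 3.58.1, a replicate block, other fits and each library left out.

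The genes named are the 4 members, their 3 most similar transcripts by Pearson correlation, Rn45s and their neighbours. Members and lists were chosen with earlier results of these data known. Sequences and positions came from GENCODE M21, and shares were compared in Python 3.11.15 with scipy 1.17.1.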

Additional observations from a re-analysis of the deposited data

Results flagged for a closer look

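Serf2 and 5730488B01Rik differed between the guides of Miat, tested as a difference between the guides. Both were kept by the count filter through the groups where they are high, not through sgMiat-6. The log2 fold change of sgMiat-96 over sgMiat-6 was 3.37 for Serf2 (adjusted p = 0.00226) and 2.25 for 5730488B01Rik (adjusted p = 0.0186, both edgeR's quasi-likelihood F test, Benjamini-Hochberg adjusted), higher in 2 of 2 libraries for each. The call for Serf2 held under all 23 alternatives. That for 5730488B01Rik held under 16 of 23, and was lost with no filter on low counts (adjusted p = 0.170, edgeR). In the same libraries Miat fragments were counted 49 and 30 times with sgMiat-6 and 1 and 0 times with sgMiat-96, and the part of this in the difference was not tested. In no member and group of 4 libraries did a single library stand apart, in 12 groups checked, where chance gives about 1 in 20.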

How the results depend on the processing

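The number of transcripts past adjusted p 0.05 moved with the settings. Between Mtdh and Miat libraries 6 became 12 with DESeq2, 2 with the replicate block, 24 with 1 term per guide, 2 with only the groups compared and 2 to 15 with a library left out (2 without control 1 or 2 or any sgMiat-6 or sgMtdh-2 library, 15 without the second sgMiat-96 and 13 without the second sgMtdh-1 library). Between sgMiat-96 and sgMiat-6, 35 became 21 with no filter and 16 to 42 with a library left out (16 without the first sgMiat-6 or the first sgMiat-96 library, 23 without the second sgMiat-6 library). Between sgMtdh-2 and sgMtdh-1, 0 became 1 with DESeq2, 1 with limma-voom and 0 to 5 with a library left out (5 without the first sgMtdh-1 library). For Miat against control, 19 became 33 (6 higher, 27 lower) with totals that include Rn45s, 1 with the replicate block, 33 with 1 term per guide and 9 to 28 with a library left out (9 without control 1, 10 without control 3). For Mtdh against control, 16 became 46 (7 higher, 39 lower) with those totals, 10 with no filter, 0 with the replicate block, 27 with 1 term per guide and 8 to 18 with a library left out (8 without control 1 or 4, the first sgMtdh-1 or the second sgMtdh-2 library, 10 without control 3). The cause was not tested.

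Against Miat libraries, the change of Gm6548 with Mtdh guides turned to -0.00035 without the first sgMiat-6 library and to -0.15 without the first sgMtdh-2 library, and that of 5730488B01Rik to -0.21 without the latter. With a library left out these changes ranged up to 0.57 for Gm6548 and 0.99 for 5730488B01Rik, none past the threshold. Between the Mtdh guides, 5730488B01Rik turned to -0.83 without the first sgMtdh-2 library and was 1.62 without the second. Between the Miat guides, Gm10857 turned to 0.41 without the first sgMiat-96 library and was -1.29 without the second, and Gm6548 passed (1.42, adjusted p = 0.0442, edgeR) with only the groups compared. The Mtdh minus Miat difference of the Gm6548 share was -11.0 CPM, 56.2 with Rn45s in the total, and -294 to 372 with a library left out (70.6, 355, 372 and 65.7 in the 4 turned cases). With both rows of Gm10857 summed, its difference was 44590 in place of 24385 CPM, with adjusted exact permutation p = 0.571 in both. That of 5730488B01Rik was 261 CPM, and -240 to 584 with a library left out (-19.1 without the first sgMiat-6 library). Leaving out the first sgMtdh-2 library lowered the change of 5730488B01Rik over control to 3.78, and totals with Rn45s lowered it to 3.66. Across all results and alternatives 566 values kept their direction and side of the threshold. Counted with them are changes that moved by less than the spread between libraries, and numbers of transcripts that moved by at most 1.5 times. Of the numbers of transcripts and share differences, 118 were kept in this sense, 33 moved and 7 turned direction. Of the members' log2 fold changes, 448 were kept, 5 moved, 5 turned direction, 7 lost the threshold and 3 gained it.

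Same-numbered libraries correlated at -0.334 to 0.264. With 2 libraries per guide the deviations from the guide mean mirror each other, so few of these values are separate. They cannot decide whether replicate numbers pair the libraries, and the replicate block shows only a shared number. Under the block, control libraries whose number occurs in no other group add nothing to a comparison with control. Counts of 0 to 3 limit what Serf2 and 5730488B01Rik show in controls.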
